A study of Mus musculus with 12 samples.

Results

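The genotype effect on inguinal white adipose tissue (iWAT), averaged over both housing temperatures, was read from all 12 arrays of the series, 6 of AKO mice and 6 of flox mice. Membership came from the sample titles, and the comparison was AKO minus flox with temperature as an additive term. The groups were AKO mice in chronic cold (AKO Cold), AKO mice at room temperature (AKO RT), flox mice in chronic cold (flox Cold) and flox mice at room temperature (flox RT), with 3 arrays each. AKO mice carried floxed alleles of Baf60a (Smarcd1) together with an Adiponectin-Cre transgene, which is active in adipocytes, so that the other cells of the fat pad kept the gene. Flox mice carried the floxed alleles without Cre. Chronic cold was 7 days at 10 °C after gradual adaptation and room temperature was 22 °C. The labels give an age of 9 months, whereas the methods name a younger age for cold exposure. Mice ate standard chow, and each array held the pooled RNA of 1 or 2 mice, so an array is not always 1 animal. Signals were log2 values after robust multi-array averaging (RMA), and each gene was represented by its brightest transcript cluster.

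BAF60a is a subunit of the SWI/SNF complexes, which use ATP to move nucleosomes and open chromatin, and BAF60 subunits link these complexes to transcription factors. Inguinal fat is a subcutaneous depot of white adipocytes that store triglyceride. In the cold, sympathetic signals recruit beige adipocytes in this depot, which burn fatty acids and uncouple respiration through UCP1. A comparison over both temperatures averages the genotype difference over white and cold-recruited fat, and a difference at 1 temperature alone can drive it. The interaction of genotype and temperature flags genes where 1 average does not describe both.

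Adipocyte markers were high on every array. Fabp4, a fatty acid chaperone of adipocytes, had 11.99 to 12.19, and Adipoq had 9.48 to 9.99, far above the median signal of all clusters of 3.635. Array medians lay between 3.57 and 3.71, and Pearson's r across all clusters was 0.981 to 0.987 within groups and 0.978 to 0.985 between groups, as a description. Transcripts of skeletal muscle were high in AKO Cold 2, AKO Cold 3 and AKO RT 2, and interferon response transcripts were high in flox RT 1 and flox RT 2. Both are given below beside the results that they move with, and results are repeated without these arrays. In bulk tissue, fewer cells of a type and less RNA per cell cannot be told apart.

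The deleted gene itself was read first. Smarcd1 had 5.89, 6.26 and 6.37 in AKO arrays and 6.27, 6.47 and 6.91 in flox arrays (lowest, median and highest of 6 here and below, log2 signal). The ranges overlapped between 6.27 and 6.37, and the averaged log2 difference of -0.34 ± 0.13 (SE) did not pass the threshold (limma, adjusted p = 0.503). A dimmer cluster of Smarcd1 differed by 0.01 ± 0.27. Which exons were deleted is not given in the sources used here, and probes outside them would not fall with the deletion. By qPCR of iWAT, the paper reports efficient deletion in mature adipocytes but not in the stromal vascular fraction. The share of undeleted cells in the signal was not tested. The paralog Smarcd2 differed by 0.05 ± 0.10, with adjusted p = 0.966, and Smarcd3 was not analysed here. None of the 27 measured SWI/SNF subunits was called, with a median log2 difference of 0.03.

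Averaged over both temperatures, 124 of 22180 genes, 0.559%, differed between AKO and flox fat (limma, Benjamini-Hochberg adjusted p below 0.05 over all genes), and 1599 had an unadjusted p below 0.05. AKO fat was higher in 73 of them (0.329% of all genes) and lower in 51 (0.23%). The median rise was 0.87 and the median fall was -0.78 on the log2 scale, against a median of -0.00436 over all genes, and 37 calls reached a 2-fold difference (24 rises and 13 falls). In 69 of the 124, the 6 AKO arrays did not overlap the 6 flox arrays, while 130 of all genes (0.586%) had this separation. Of the calls, 19 had a mean below the overall median signal in at least 1 genotype and are called dim below. The count was sensitive to single arrays. It was 82 without AKO Cold 2 and 79 without AKO Cold 3, against 83 to 113 without any other array, and 72 of the 124 genes stayed past the threshold in all 12 fits with 1 array left out. The number of falls lay between 24 and 32 without any 1 array, except for 38 without flox Cold 3 and 53 without flox RT 2. Without the 3 muscle-rich arrays 43 genes were called, without the 2 interferon-rich arrays 65, and with the muscle and mammary marker means as covariates 64, with fewer arrays or degrees of freedom in each fit. Of 71 named calls tried in these 3 fits, 20 passed in all 3 and none changed sign. The 20 were Apoc1, Cbs, Cidea, Cyp2f2, Ddo, Ffar2, Il17re, Lurap1, Mapt, Mc2r, Npnt, Ntrk3, Optc, Oxtr, Pex11a, Plin5, S100b, Slc25a10, Tfr2 and Wdr93. Each other call described here was lost in at least 1 of the 3 fits. The fit without the muscle-rich arrays left AKO Cold 1 as the only AKO Cold array. The fit without the interferon-rich arrays left flox RT 3 as the only flox RT array. Calls lost in these fits cannot separate muscle or interferon transcripts from the loss of arrays.

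**Figure D1:**
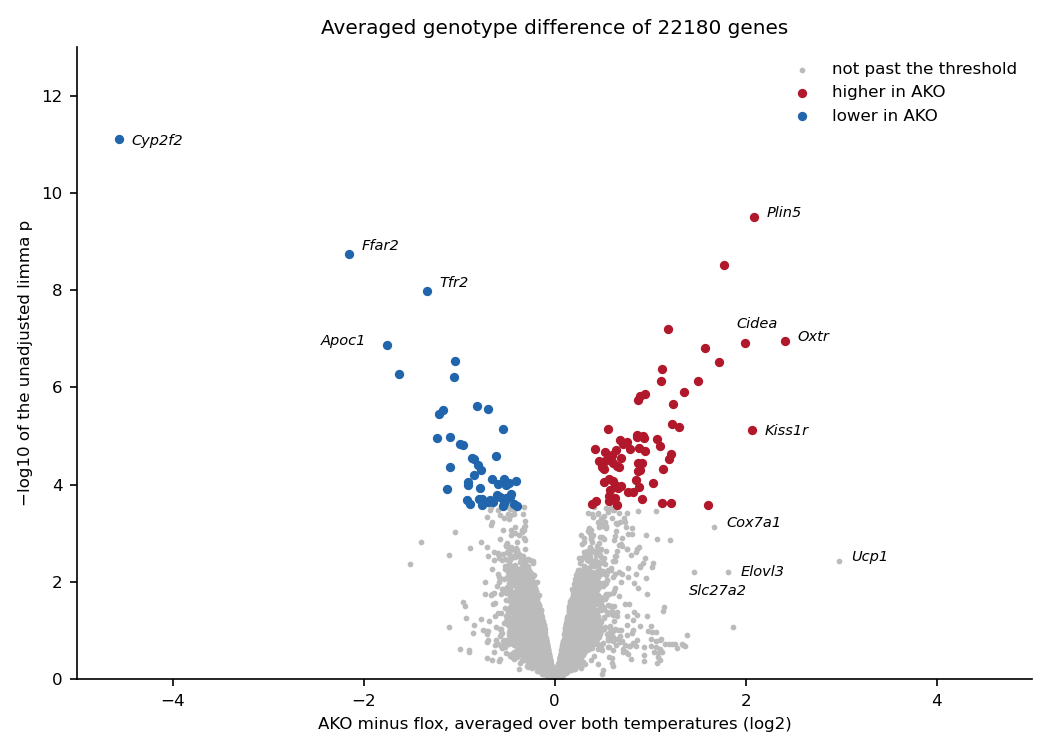
Each point is 1 of 22180 genes. The horizontal axis is the AKO minus flox log2 difference averaged over both temperatures, and the vertical axis is -log10 of the unadjusted limma p. Red points are the 73 genes higher and blue points the 51 genes lower in AKO at an adjusted p below 0.05, and grey points did not pass. Cyp2f2 stands alone at the left, while Ucp1 has a large average difference but a p that does not pass.

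The average gained precision over a single temperature. Its median SE, over genes, was 0.107 on the log2 scale, against 0.151 at 1 temperature, and the same arrays gave 47 calls in chronic cold (0.212%) and 32 at room temperature (0.144%). Of the 124 averaged calls, 16 also passed at both temperatures and 30 at 1 of them. The other 78 (0.352% of all genes; 39 rises and 39 falls) passed at neither. These 78 differed by 0.39 to 1.30 in size, with a median of 0.67, whereas the 46 that passed at a temperature had a median size of 1.12. The arrays of the genotypes did not overlap in 41 of the 78 and in 28 of the 46. Of the 78 calls 36 stayed past the threshold whichever array was left out, and of the 46 also 36. All 124 differences had the same sign at both temperatures, which an average past the threshold favours, and the averaged and single-temperature values share their arrays.

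The 2 temperatures fitted alone share no array, so each repeats the genotype comparison of the other. The cold arrays alone gave 18 rises, of which 17 were also higher in AKO at room temperature and 10 had an unadjusted p below 0.05 there in that direction, against 3.02% of all genes. The exception in sign was Slc27a2. They gave 8 falls, of which 7 were also lower at room temperature and 6 passed in that way, against 3.04%, with the predicted gene Gm14057 as the exception. The room temperature arrays alone gave 5 rises and 2 falls. All 7 had the same sign in cold with an unadjusted p below 0.05, against 3.07% of all genes for rises and 2.89% for falls. The genes chosen as rises in cold had a median difference of 2.07 in cold and of 0.55 at room temperature, while the falls had -1.79 in cold and -1.34 at room temperature.

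The leading falls among annotated genes were in a detoxification enzyme, a metabolite receptor, an apolipoprotein and a transferrin receptor. Cyp2f2, a cytochrome P450 known for oxidising naphthalene in mouse lung, had 5.11, 6.18 and 6.34 in AKO arrays and 10.17, 10.57 and 10.71 in flox arrays. The ranges lay 3.83 apart, and AKO fat held 4.23% of the flox signal (log2 difference -4.56, 95% interval -4.99 to -4.14, adjusted p = 1.7e-07). A dimmer cluster of the gene differed by -1.55 ± 0.31. Ffar2, which senses short-chain fatty acids such as acetate, had 3.84, 4.28 and 4.83 in AKO arrays and 6.17, 6.49 and 6.82 in flox arrays. It fell to 22.5% of the flox signal without overlap (log2 difference -2.16, 95% interval -2.47 to -1.84, adjusted p = 1.35e-05). Apoc1, an apolipoprotein that slows the clearance of triglyceride-rich particles, had 5.27, 5.99 and 6.19 in AKO arrays and 7.22, 7.55 and 7.91 in flox arrays. Every AKO array was below every flox array, and the log2 difference was -1.75 ± 0.17 (adjusted p = 0.000332). Tfr2, a transferrin receptor known for iron sensing in liver, fell by 1.34 ± 0.10 on the log2 scale. It was dim in both genotypes, with 1.93, 2.23 and 2.30 in AKO fat and 3.05, 3.56 and 3.88 in flox fat.

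The leading rises were in receptors and in proteins of the lipid droplet. Oxtr, the oxytocin receptor, had 7.35, 7.52 and 8.30 in AKO arrays and 4.24, 5.36 and 5.61 in flox arrays. The genotypes were 1.74 apart at their nearest arrays, and the signal was 5.32-fold higher (log2 difference 2.41, 95% interval 1.92 to 2.91, adjusted p = 0.000332). Plin5, a droplet protein that ties droplets to mitochondria, had 6.60, 7.15 and 7.76 in AKO arrays and 4.59, 5.02 and 5.77 in flox arrays. It rose 4.24-fold without overlap (2.08 ± 0.12, adjusted p = 3.52e-06), the smallest p among the rises. Kiss1r, the kisspeptin receptor, had 5.09, 6.26 and 7.34 in AKO arrays and 3.17, 4.30 and 4.47 in flox arrays, also without overlap (2.07 ± 0.29, adjusted p = 0.0055). Its call was lost without the 2 interferon-rich arrays, at 1.89 with adjusted p = 0.0558. Cidea, which drives exchange of lipid between droplets, differed by 1.99 ± 0.19 (adjusted p = 0.000332). Its groups were ordered by both factors, with means of 10.13 in AKO Cold, 8.10 in AKO RT, 7.68 in flox Cold and 6.57 in flox RT, so that AKO RT and flox Cold arrays overlapped.

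**Figure D2:**
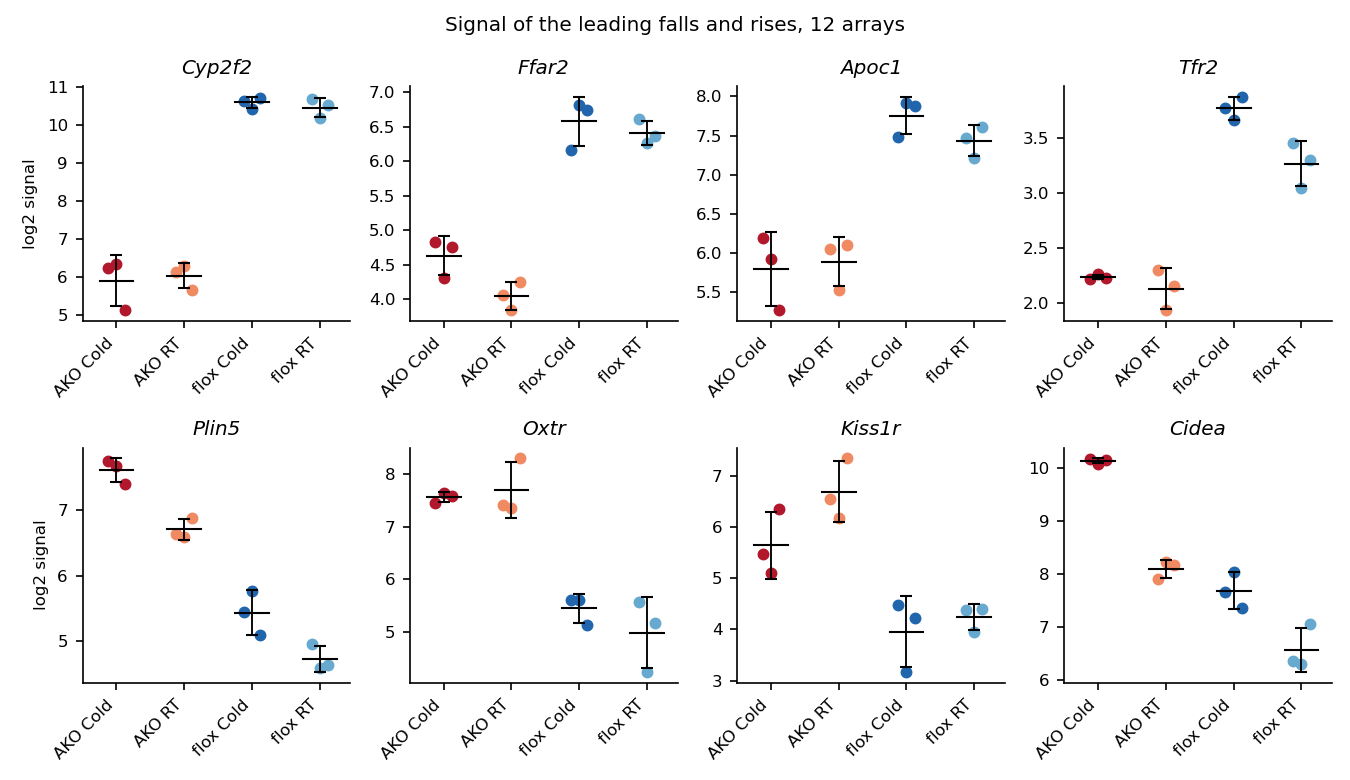
Log2 signal of 4 leading falls (top) and 4 leading rises (bottom) in the 12 arrays. Points are arrays, horizontal lines are group means and bars are SD (n = 3), with groups in the order AKO Cold, AKO RT, flox Cold and flox RT. The genotypes separate at both temperatures for each gene, and Plin5 and Cidea are in addition higher in cold within each genotype.

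The start regions of the 4 genes at the head of both directions are shown because they are the DNA next to the strongest differences, 250 bases before to 50 bases after an annotated start (RefSeq, GRCm38.p6, 5′ to 3′ in the direction of the gene). Capitals mark matches, on either strand, to the nuclear receptor hexamer AGGTCA or the C/EBP motif TTGCNNAA, which are binding motifs of regulators of adipocyte genes. Ffar2 has 4 annotated starts and Plin5 has 2, of which 1 each is given.
Cyp2f2, chr7:27119705-27120004, plus strand: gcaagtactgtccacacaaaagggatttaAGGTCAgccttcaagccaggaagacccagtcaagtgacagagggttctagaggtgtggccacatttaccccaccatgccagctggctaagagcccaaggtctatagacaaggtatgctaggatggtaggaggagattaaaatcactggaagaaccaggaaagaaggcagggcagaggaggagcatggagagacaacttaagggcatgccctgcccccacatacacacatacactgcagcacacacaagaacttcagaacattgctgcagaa
Ffar2, chr7:30823726-30824025, minus strand: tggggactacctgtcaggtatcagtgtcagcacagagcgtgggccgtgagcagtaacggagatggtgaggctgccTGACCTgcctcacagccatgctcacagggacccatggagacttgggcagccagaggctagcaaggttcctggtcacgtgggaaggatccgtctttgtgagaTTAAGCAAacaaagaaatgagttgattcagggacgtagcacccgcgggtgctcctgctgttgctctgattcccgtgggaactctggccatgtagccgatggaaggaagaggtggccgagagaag
Plin5, chr17:56117499-56117798, minus strand: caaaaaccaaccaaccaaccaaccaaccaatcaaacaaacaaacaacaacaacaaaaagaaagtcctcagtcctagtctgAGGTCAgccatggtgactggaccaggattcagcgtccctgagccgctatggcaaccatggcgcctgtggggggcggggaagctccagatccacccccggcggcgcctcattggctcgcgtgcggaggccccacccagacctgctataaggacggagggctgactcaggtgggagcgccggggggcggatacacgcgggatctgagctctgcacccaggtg
Oxtr, chr6:112489776-112490075, minus strand: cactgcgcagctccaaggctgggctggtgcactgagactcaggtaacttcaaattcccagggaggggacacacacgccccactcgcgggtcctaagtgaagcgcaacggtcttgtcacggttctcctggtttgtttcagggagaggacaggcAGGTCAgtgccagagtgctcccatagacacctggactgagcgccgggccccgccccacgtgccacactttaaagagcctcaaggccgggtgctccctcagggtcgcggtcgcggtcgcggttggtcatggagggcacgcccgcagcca
The hexamer begins 221 bases before the start in Cyp2f2, 170 in Plin5 and 98 in Oxtr, and on the reverse strand 175 bases before it in Ffar2. Ffar2 also holds a C/EBP match, on the reverse strand, 74 bases before the start. Of all 32851 start regions of this length, 16.3% hold the hexamer and 10.8% the C/EBP motif. Of the 126 regions of the 87 called genes with an entry, 24 (19%) hold the hexamer and 25 (19.8%) the C/EBP motif. Regions of 1 gene can overlap, no test was made, and a match is no evidence of binding.

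Among receptors for hormones and metabolites, 3 of 22 listed genes rose and 2 fell, and the list median was -0.01. Over all genes, 0.329% rose and 0.23% fell. This and the other lists were chosen with earlier results of these data known, so their counts of calls are a description. Mc2r, the receptor for adrenocorticotropic hormone, had 7.57, 7.91 and 7.94 in AKO arrays and 6.28, 6.78 and 6.97 in flox arrays. All AKO arrays were above all flox arrays, and the difference was 1.12 ± 0.13 (adjusted p = 0.000961). Cnr1, the cannabinoid receptor CB1, had 3.02, 3.37 and 4.12 in AKO arrays and 4.35, 4.66 and 4.86 in flox arrays, again separated. It fell by 1.21 ± 0.16 on the log2 scale (adjusted p = 0.00305) and passed at neither temperature, with -1.14 in cold (adjusted p = 0.093) and -1.28 at room temperature (0.0728). It was dim in AKO fat, and the call was lost without the 3 muscle-rich arrays (-0.95, adjusted p = 0.0629). Mc5r, another melanocortin receptor outside that list, had 3.50, 4.25 and 4.73 in AKO arrays and 4.29, 5.57 and 5.96 in flox arrays. It differed by -1.12 ± 0.21 (adjusted p = 0.0294), and only the fits without AKO RT 2 or flox RT 2 kept its call, with adjusted p up to 0.0868 without the others. Il17re, a subunit of the interleukin-17C receptor, rose by 1.23 ± 0.17 and its arrays did not overlap. P2rx5, an ATP-gated channel that is also a surface marker of thermogenic adipocytes, rose by 0.88 ± 0.13. Hcar1, the lactate receptor of adipocytes, stayed outside the threshold at -0.58 ± 0.12 (adjusted p = 0.0626).

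Of the list of innervation and neurotrophin genes, 3 of 22 rose and 1 fell, with a median of 0.00. S100b, a calcium-binding protein of glia that thermogenic adipocytes also make, had 4.03, 4.27 and 4.66 in AKO fat and was dim in flox fat at 2.31, 2.70 and 3.26. The groups were separated by 0.77 and the difference was 1.58 ± 0.15 (adjusted p = 0.000342). Ntrk3, the neurotrophin-3 receptor TrkC, ranged between 7.53 and 8.42 in AKO arrays and between 6.02 and 6.83 in flox arrays and rose 2.84-fold (adjusted p = 0.000961), and the microtubule protein gene Mapt, dim in flox fat at 2.56 to 3.17, rose by 1.35 ± 0.16, both without overlap. Celsr2, an adhesion receptor of the cadherin superfamily, had 5.49, 6.06 and 6.43 in AKO arrays and 6.71, 7.26 and 7.73 in flox arrays and fell by 1.23 ± 0.18. None of the 9 measured Schwann cell markers was called, and their median difference was -0.10. Fgf14, an intracellular modulator of sodium channels named after its values were seen, rose by 0.95 ± 0.15.

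The averaged calls of fatty acid oxidation were small. In the beta-oxidation list 3 of 23 members rose, none fell, 20 had a positive sign and the median was 0.20. Crat, which moves acetyl groups between coenzyme A and carnitine, had 9.78, 10.17 and 10.46 in AKO arrays and 9.20, 9.60 and 9.87 in flox arrays. It rose by 0.61 ± 0.09 (adjusted p = 0.0104), with 0.64 in cold and 0.57 at room temperature, and passed at neither. Decr1, which reduces unsaturated intermediates, rose by 0.52 ± 0.09 with the same difference of 0.52 at each temperature. Hadha, the alpha subunit of the trifunctional protein, rose by 0.40 ± 0.08 (adjusted p = 0.0476), and its call was kept only without flox RT 2 (adjusted p up to 0.129 without another array). Without the 3 muscle-rich arrays none of the 3 passed, at 0.70, 0.60 and 0.39 (adjusted p = 0.0659, 0.0939 and 0.305), while the list median was 0.23. Acot13, a mitochondrial acyl-CoA thioesterase, rose by 0.42 ± 0.06, among the smallest differences called. Acadvl, the very long-chain dehydrogenase, had 0.46 ± 0.10 and did not pass (adjusted p = 0.0608).

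No list of peroxisomal genes was made, and the peroxisomal members Ehhadh (-0.27), Acaa1b (-0.22), Acaa1a (0.04) and Hsd17b4 (0.22) of the beta-oxidation list, given after their values were seen, did not pass. Pex11a, which promotes peroxisome division, had 7.93, 8.28 and 9.03 in AKO arrays and 6.74, 7.12 and 7.63 in flox arrays. It rose 2.28-fold without overlap (1.19 ± 0.11, adjusted p = 0.000235). Ddo, the peroxisomal D-aspartate oxidase, rose by 1.24 ± 0.15, with groups only 0.04 apart. Pecr, a peroxisomal enoyl-CoA reductase named after its values were seen, rose by 0.64 ± 0.10 (adjusted p = 0.00914) and passed at neither temperature. Ppara, the nuclear receptor that controls many genes of fatty acid oxidation, rose by 0.91 ± 0.18 on average, with 1.34 in cold (adjusted p = 0.0155) and 0.48 at room temperature (0.768). The averaged call of Ppara (adjusted p = 0.042) was kept only without AKO RT 2 or flox RT 1, with adjusted p up to 0.109 otherwise.

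Calls in the other lists of fuel handling were few. Pdk4, the kinase that shuts off pyruvate dehydrogenase, had 9.73, 9.86 and 10.24 in AKO Cold, 7.72, 7.61 and 8.01 in AKO RT, 7.93, 8.30 and 7.79 in flox Cold and 7.49, 7.46 and 6.88 in flox RT. The 3 AKO Cold arrays stood above all others, and the average of 1.22 ± 0.24 (adjusted p = 0.0453) combined 1.94 in cold with 0.50 at room temperature. The call was kept only without AKO RT 2, flox RT 1 or flox RT 2 (adjusted p up to 0.124 otherwise). Slc16a1, the lactate and pyruvate transporter MCT1, rose by 0.79 ± 0.12 (adjusted p = 0.00879). Pfkl, liver-type phosphofructokinase, rose by 0.61 ± 0.11 and lost its call without AKO Cold 1, AKO Cold 2, AKO Cold 3, AKO RT 1 or flox Cold 2 (adjusted p up to 0.0674). Slc16a1 and Pfkl were the 2 of 20 glycolysis and glucose uptake genes past the threshold, with a list median of 0.19. Acaca, which makes malonyl-CoA for fatty acid synthesis, rose by 0.57 ± 0.11 (adjusted p = 0.0434) and kept its call only without flox Cold 1 (adjusted p up to 0.114 otherwise). Slc25a10, the mitochondrial dicarboxylate carrier, had 6.11, 6.53 and 7.17 in AKO arrays and 7.10, 7.73 and 8.05 in flox arrays. It fell by 1.05 ± 0.12 (adjusted p = 0.000922) with -1.05 at each temperature, and was the only 1 of 37 SLC25 carriers called. Acaca and Slc25a10 were the 1 rise and 1 fall among 25 genes of fatty acid and triglyceride synthesis, whose median was 0.19. Prkag3, an AMP-activated kinase subunit known from glycolytic muscle, was dim in flox fat (2.39 to 3.04) and rose by 1.07 ± 0.15. Its arrays were 3.64, 3.16 and 4.28 in AKO Cold 2, AKO Cold 3 and AKO RT 2, which were rich in muscle transcripts, and 2.99, 4.28 and 4.53 in AKO Cold 1, AKO RT 1 and AKO RT 3. Without the 3 muscle-rich arrays the difference was as large, 1.07, and did not pass (adjusted p = 0.0868).

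Mitochondrial lists had small positive medians. Of 69 oxidative phosphorylation genes 68 had a positive difference and none was called, with a median of 0.14 (0.18 in cold, 0.10 at room temperature). Of 29 genes of the tricarboxylic acid cycle and pyruvate oxidation 24 were positive, with a median of 0.15 and Pdk4 as the only call. Over all genes 48.6% were positive. Beside these lists stand the markers of skeletal muscle, a tissue rich in mitochondria, of which 25 of 25 were positive and none called, with a median of 1.07. Their mean level per array, less its mean over the 12 arrays, was -1.79 to 3.01 in AKO and -1.57 to 0.81 in flox arrays. The creatine kinase gene Ckm, a defining muscle marker, was at 3.23 to 8.84 in AKO arrays and 3.27 to 6.57 in flox arrays. Without the 3 muscle-rich arrays the muscle median was -0.68, and the medians of oxidative phosphorylation and of the cycle were 0.21 and 0.19. That fit left AKO Cold 1 as the only AKO Cold array. Its mean levels of the 2 mitochondrial lists, 0.43 and 0.42, were the highest of the 12 arrays. The part of muscle in these medians was not tested.

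The thermogenic and beige adipocyte list showed what the average does not describe. Of its 26 measured genes 5 rose, Cidea, Plin5, Pdk4, Chchd10 and Ppara, and none fell, with a median of 0.47 that joined 0.79 in cold and 0.10 at room temperature. Ucp1 averaged 10.64 ± 0.26 in AKO Cold, 2.83 ± 0.25 in AKO RT, 4.79 ± 1.02 in flox Cold and 2.73 ± 0.16 in flox RT (SD, n = 3 each), and the flox Cold arrays spanned 3.70 to 5.72. The 3 AKO Cold arrays stood far above the other 9. The averaged difference of 2.98 ± 0.84 was the largest positive value among the named genes and did not pass (adjusted p = 0.261), while the interaction of genotype and temperature did, at 5.75 (adjusted p = 0.00188). The interaction was called in 4 genes (0.018%), the others being Cox7a1, a cytochrome c oxidase subunit isoform, Slc27a2, an acyl-CoA synthetase, and Acot11, a thioesterase that cold induces in brown fat. None of the 4 passed in the average. The additive fit counts an interaction as residual spread, so a strong interaction itself widens the SE of the average. Among 14 alternative settings other than leaving out 1 array, each of the 4 passed in 2. Elovl3, a fatty acid elongase of cold-exposed fat, had an average of 1.81 ± 0.56 (adjusted p = 0.357), made of 3.60 in cold and 0.02 at room temperature. Elovl3 passed in 1 of those settings. No averaged call had an interaction adjusted p below 0.657, which the additive fit favours. The interaction also had a median SE of 0.213 against 0.107 for the average, so equal differences at both temperatures do not follow. Chchd10, a protein of the mitochondrial intermembrane space, rose by 0.95 ± 0.11 (adjusted p = 0.0016), with 1.16 in cold and 0.74 at room temperature, and was also higher in cold in each genotype.

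**Figure D3:**
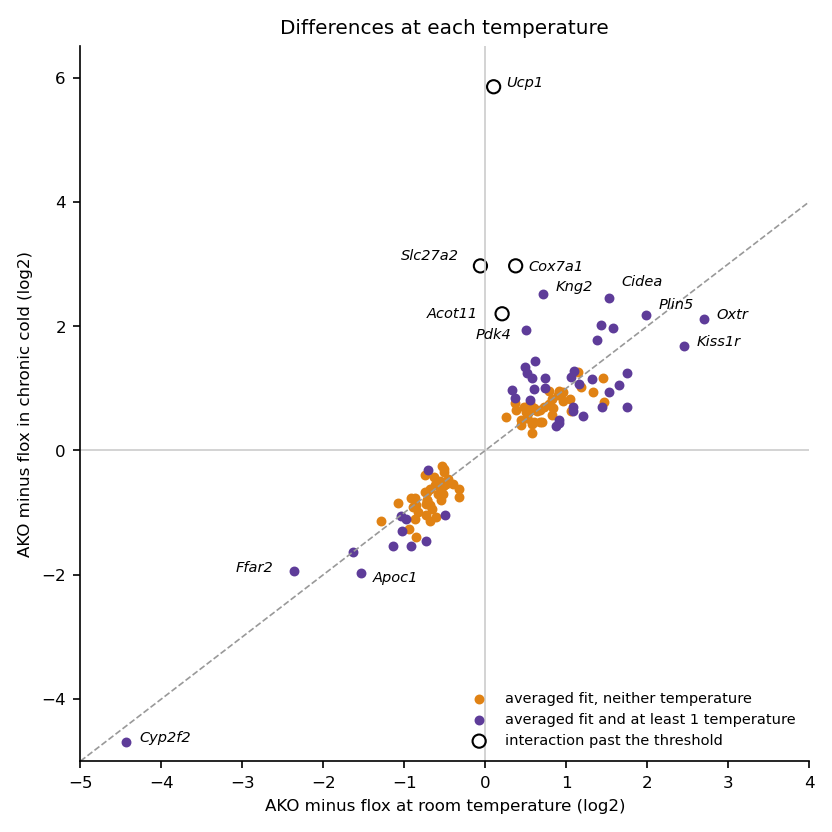
AKO minus flox log2 difference in chronic cold (vertical) against room temperature (horizontal) for the 124 genes called in the average, with the 4 genes of the called interaction circled. Orange points passed at neither temperature and purple points at 1 or both, the dashed line marks equal differences, and both axes enter the average that chose the points. The called genes lie in the upper right and lower left, while Ucp1, Cox7a1, Slc27a2 and Acot11 lie at 2.20 to 5.85 in cold and at -0.06 to 0.38 at room temperature.

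In the list of xenobiotic and glutathione enzymes 5 of 35 genes fell and 1 rose, with a median of 0.00. Beside Cyp2f2, the glutathione transferase gene Gsta3 had 4.58, 5.26 and 5.87 in AKO arrays and 5.44, 6.49 and 7.19 in flox arrays. The ranges overlapped across temperatures, both genotypes having higher means in cold, and the difference within temperatures was -1.17 ± 0.15 (adjusted p = 0.00264). Its paralog Gsta4 went the other way, with 7.79, 8.24 and 8.72 in AKO arrays and 6.61, 7.49 and 8.02 in flox arrays. It rose by 0.85 ± 0.15 (adjusted p = 0.0226), and the call was lost without AKO Cold 1, AKO RT 1, AKO RT 3, flox Cold 3 or flox RT 1 (adjusted p up to 0.0664). Paralogs of this family share sequence, so probes of 1 can read the other. Aldh1a7, an aldehyde dehydrogenase, fell by 0.87 ± 0.14 and passed at neither temperature. Cyp2e1, an ethanol-oxidising cytochrome P450, and the carboxylesterase gene Ces1f, both named after their values were seen, fell by 0.39 ± 0.08 and 0.59 ± 0.11. The call of Cyp2e1 (adjusted p = 0.0485) was kept only without flox Cold 3, and that of Ces1f (0.0258) only without AKO Cold 1, AKO RT 1, flox Cold 3 or flox RT 2, with adjusted p up to 0.119 and 0.0733.

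**Figure D4:**
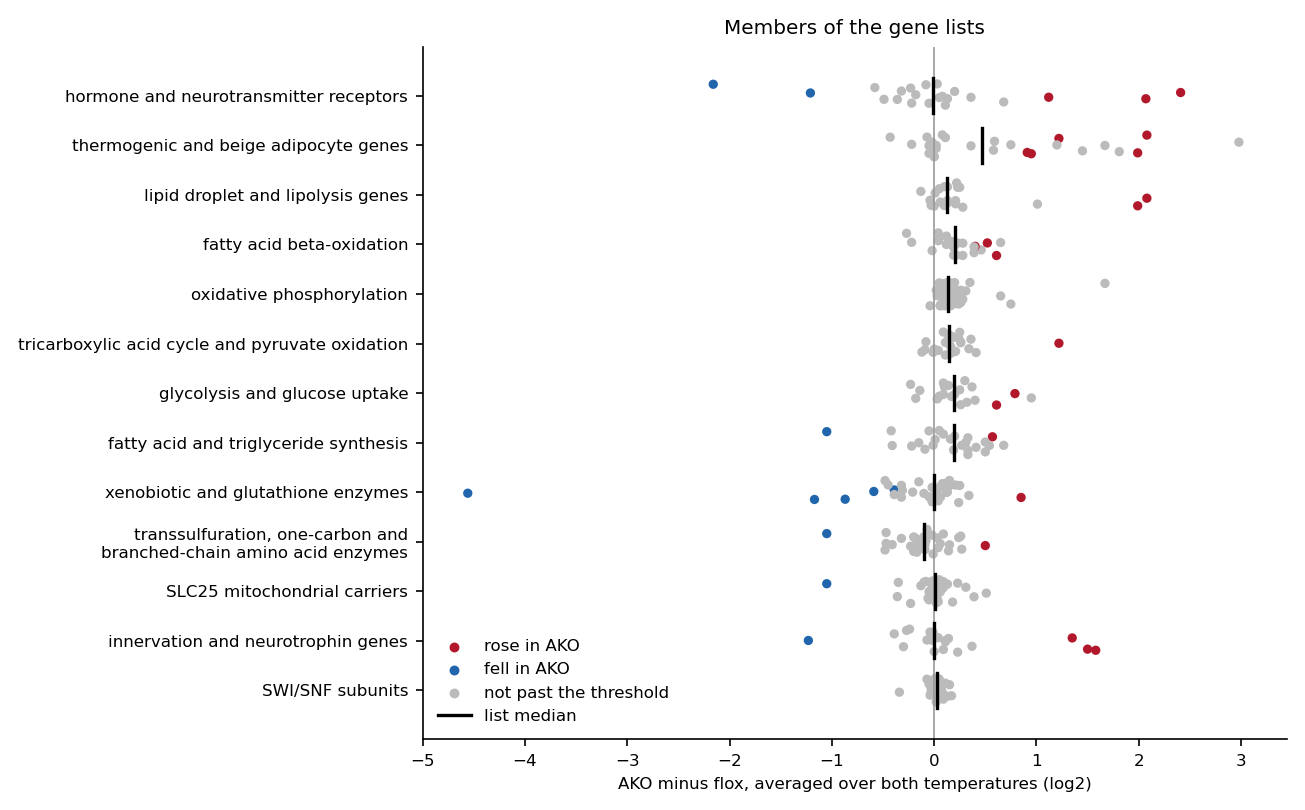
AKO minus flox log2 differences, averaged over both temperatures, of the measured members of 13 gene lists. Each point is a gene, red points rose and blue points fell in AKO at an adjusted p below 0.05, grey points did not pass, and black bars are list medians. The thermogenic list has the highest median at 0.47, while lists with strong single members, such as xenobiotic enzymes with Cyp2f2 at -4.56, have medians near 0.

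In the list of transsulfuration, one-carbon and branched-chain amino acid enzymes 1 of 33 genes fell and 1 rose. Cbs, the first enzyme of transsulfuration, had 3.72, 4.08 and 4.34 in AKO arrays and 4.64, 5.05 and 5.64 in flox arrays. The genotypes did not overlap, and Cbs fell to 48.4% of the flox signal (-1.05 ± 0.11, adjusted p = 0.000563). Bckdhb, a subunit of the branched-chain ketoacid dehydrogenase, rose by 0.50 ± 0.08 (adjusted p = 0.0142). The other members did not pass, and 23 of the 33 were negative, with a median of -0.10. Csad, which makes hypotaurine from cysteine sulfinate, was nearest at -0.47 ± 0.10 (adjusted p = 0.0545). Slc7a10, an amino acid transporter of white adipocytes, averaged 8.28 ± 0.24 in AKO arrays and 8.89 ± 0.17 in flox arrays (SD, n = 6 each), with 8.60 as the highest AKO and 8.74 as the lowest flox value. It fell by 0.61 ± 0.10 without overlap and passed at neither temperature, and was the only call among 27 white adipocyte genes and adipokines (median -0.01). Oplah, which returns 5-oxoproline to glutamate, rose by 0.87 ± 0.12 and Prps1, which makes phosphoribosyl pyrophosphate, fell by 0.80 ± 0.13, both named after their values were seen.

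Falls that passed in the average and at neither temperature included secreted, membrane and transport proteins. Wfdc21, a small secreted protein with a whey acidic protein domain, had 6.31, 6.43 and 6.67 in AKO arrays and 7.04, 7.27 and 7.53 in flox arrays. It fell by 0.82 ± 0.10 (adjusted p = 0.00235), the smallest p among falls that passed at neither temperature (-0.76, adjusted p = 0.0811 in cold; -0.87, 0.0535 at room temperature). Serpina3n, a serine protease inhibitor, had 9.92, 10.09 and 10.56 in AKO arrays and 10.59, 10.77 and 11.28 in flox arrays and fell by 0.70 ± 0.09 (adjusted p = 0.00256). The highest AKO array was 0.02 below the lowest flox array. Slc2a13, a proton-coupled myo-inositol transporter, fell by 1.10 ± 0.16, and Ptprf, the receptor phosphatase LAR, by 0.54 ± 0.08, both without overlap. Kcne1l, an accessory potassium channel subunit, was dim and fell by 0.99 ± 0.15. Folh1, glutamate carboxypeptidase II, fell by 1.10 ± 0.18 with 4.30, 3.87 and 4.35 in AKO Cold, 5.28, 4.90 and 5.37 in AKO RT, 6.07, 5.60 and 5.24 in flox Cold and 6.10, 5.61 and 6.05 in flox RT. The AKO Cold arrays were the lowest, and Folh1 also passed in cold (-1.46, adjusted p = 0.0185). Without the 3 muscle-rich arrays Wfdc21 had -0.79, Serpina3n -0.66, Ptprf -0.50, Slc2a13 -0.90, Kcne1l -0.81 and Folh1 -0.88, and none passed with these fewer arrays (adjusted p from 0.0521 for Wfdc21 to 0.215 for Folh1).

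Of genes named after their values were seen, Hp, the haptoglobin gene of mature adipocytes, fell by 0.77 ± 0.13, and its call was lost without AKO Cold 2 (adjusted p = 0.0502). Nos3, endothelial nitric oxide synthase, fell by 0.78 ± 0.14 and Irs3, an insulin receptor substrate of rodent adipocytes, by 0.76 ± 0.15. Both calls were kept only without AKO RT 3 or flox RT 2 (adjusted p up to 0.077 and 0.129 otherwise). None of the 12 endothelial markers was called, and their median was -0.01. Plagl1, an imprinted zinc finger gene, differed by -0.92 ± 0.18 in its bright cluster and by -0.26 ± 0.15 in a dimmer one. Its call (adjusted p = 0.0434) was kept only without flox RT 2, with adjusted p up to 0.109 otherwise. The imprinted neuronatin gene Nnat averaged -1.52 ± 0.44 without passing (adjusted p = 0.289), with -2.86 in cold and -0.17 at room temperature, and a dimmer cluster of Nnat differed by -0.11 ± 0.18 (-0.41 in cold, 0.20 at room temperature).

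Rises that passed in the average and at neither temperature were led by other genes. Optc, a proteoglycan of the matrix, had 3.98, 4.33 and 4.82 in AKO arrays and was dim in flox arrays with 2.48, 3.12 and 3.48. The groups were 0.50 apart, and the difference was 1.30 ± 0.18 (adjusted p = 0.00517). Car1, carbonic anhydrase 1, rose by 1.20 ± 0.19 with overlapping arrays. Mal2, a protein of apical transport, rose by 1.10 ± 0.16 and Enpep, the aminopeptidase that cleaves angiotensin II, by 0.76 ± 0.11, both without overlap. Wdr93 rose by 0.94 ± 0.14, Efcab2 by 0.71 ± 0.11, the unconventional myosin gene Myo5c by 0.93 ± 0.13 and Lurap1 by 0.56 ± 0.08. Signalling genes included Pde4a, which degrades cyclic AMP and was the only call among 27 genes of that pathway, with 5.56, 5.93 and 6.15 in AKO arrays and 5.09, 5.26 and 5.49 in flox arrays. It rose by 0.59 ± 0.09 without overlap (adjusted p = 0.0111). Grk3, a kinase that desensitises receptors, rose by 0.66 and Sgms2, sphingomyelin synthase 2, by 0.92, both named after their values were seen.

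A few larger rises leaned to 1 temperature, although no interaction passed for them. Pla2g5, a secreted phospholipase A2, had 5.24, 4.86 and 5.41 in AKO Cold, 6.30, 5.95 and 6.17 in AKO RT, 4.73, 4.45 and 4.25 in flox Cold and 4.60, 4.39 and 4.19 in flox RT. All AKO arrays were above all flox arrays, with 0.69 in cold and 1.75 at room temperature (interaction adjusted p = 0.844). Kng2, a kininogen gene that was dim in flox fat, had 4.91, 5.01 and 4.93 in AKO Cold, 4.03, 2.66 and 3.79 in AKO RT, 2.26, 2.94 and 2.13 in flox Cold and 2.85, 2.86 and 2.65 in flox RT. The array AKO RT 2 lay among the flox arrays. Its average of 1.61 ± 0.32 (adjusted p = 0.0485) passed in only 1 of the 12 fits with an array left out, the one without AKO RT 2 (adjusted p up to 0.129 otherwise). Slc9a2, a sodium-proton exchanger, was dim in flox fat and rose by 0.87 ± 0.11, with 1.16 in cold and 0.58 at room temperature. Npnt, a matrix ligand of integrins named after its values were seen, rose by 1.12 ± 0.12 and had no such lean, with 1.19 in cold and 1.06 at room temperature.

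Markers of other cells were read beside these calls. Trp63, a transcription factor of basal epithelium, fell by 0.97 ± 0.14 and was the only 1 of 23 mammary epithelial markers called, dim in AKO fat with 2.83, 3.08 and 3.46, against 3.65, 4.13 and 4.38 in flox fat. The mammary list had 18 negative members and a mean level per array of -0.21 to 0.21 in AKO and -0.16 to 0.63 in flox, and its keratin Krt14 was near the bottom of the scale, 1.15 to 1.77 in AKO arrays and 1.33 to 3.41 in flox arrays. With the muscle and mammary marker means as covariates Trp63 differed by -0.98 (adjusted p = 0.0054). Trp63 is itself 1 of the mammary markers, so that fit cannot separate its fall from mammary content. Without the 2 interferon-rich arrays Trp63 had -0.95, near its value in all arrays, with adjusted p = 0.0509. In the interferon list 23 of 24 genes were negative and 1 rose, with a median of -0.22, and the list mean was -0.41 to 0.17 in AKO and -0.34 to 1.12 in flox arrays. Ifi27 was the exception, at 9.18, 9.28 and 9.59 in AKO arrays and 8.09, 8.64 and 9.04 in flox arrays (0.70 ± 0.11, adjusted p = 0.0112). Without flox RT 1 and flox RT 2 the list median was 0.11, so its sign rested on them, and Ifi27 had 0.56 (adjusted p = 0.0558). None of the 13 B cell, 13 T cell, 17 macrophage, 15 progenitor or 12 endothelial markers was called, and the T cell markers were negative in 13 of 13, with a median of -0.12. Of 11 adipocyte markers Slc7a10 alone was called, and the median was -0.01. The part of muscle, mammary and interferon transcripts in the calls was not tested beyond these fits.

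**Figure D5:**
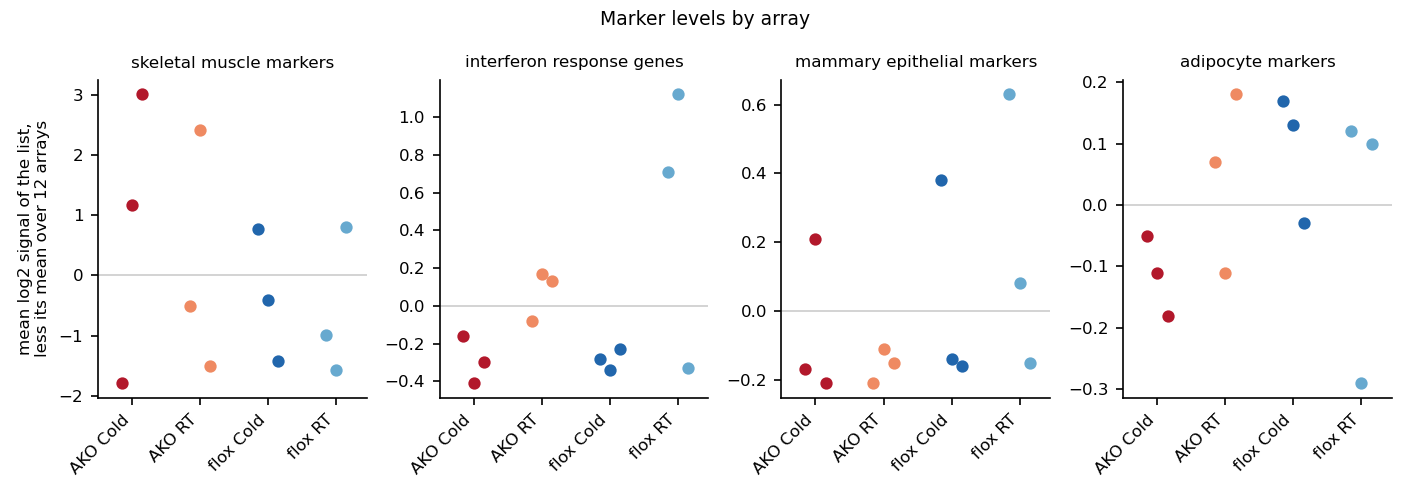
Mean log2 signal of 4 marker lists in each array, less the mean of the list over the 12 arrays. Points are arrays in the order AKO Cold, AKO RT, flox Cold and flox RT, and each panel has its own scale. Muscle markers are high in AKO Cold 2, AKO Cold 3 and AKO RT 2, interferon genes in flox RT 1 and flox RT 2, and adipocyte markers stay within -0.29 to 0.18.

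Proliferation, stress and matrix lists held no averaged call: 0 of 29 cell cycle genes (27 negative, median -0.14, with 0.02 in cold and -0.32 at room temperature), 0 of 24 unfolded protein response genes (-0.05), 0 of 28 collagen and matrix genes (-0.01), 0 of 17 clock genes (0.07), 0 of 20 immediate early genes (-0.01) and 0 of 19 cholesterol synthesis genes (-0.07). Of the genes that the study names for brown or beige fat, 5 of 41 measured rose, Oxtr, Kiss1r, Cidea, Mc2r and Ppara, and none fell. The others included Pparg at 0.01 ± 0.12, Prdm16 at -0.07 ± 0.14, Ebf2 at 0.00 ± 0.12 and Ppargc1a at -0.22 ± 0.20, all with an adjusted p of 0.921 or more. That list was partly chosen by the study on these arrays and is no independent evidence of direction.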

How the data were processed

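RNA of inguinal fat from 12 samples was hybridised to 12 arrays, 6 AKO and 6 flox, each genotype with 3 arrays in chronic cold and 3 at room temperature. The deposited log2 values had been made by the authors with robust multi-array averaging (RMA) in R 3.1.1, per the submitters' processing notes and the methods. Whether the 12 arrays were normalised together is not given in the sources used here. Arrays give no read depth, and their number limits the precision.

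Of 41345 transcript clusters, 23521 had exactly 1 gene symbol in the platform annotation, 1820 had several and 16004 had none. The brightest cluster of each gene gave 22180 genes. Genotype was tested with limma 3.58.1 (R 4.3.3, lmFit and eBayes) with temperature as an additive term, two-sided, with Benjamini-Hochberg adjustment over all genes and a threshold of 0.05 without a minimum fold. Every adjusted p in the text comes from limma. Differences at each temperature and the interaction came from a fit with 1 mean per group. The labels call the arrays biological replicates, each of 1 or 2 mice. The code was tested on simulated data. Figures were drawn with matplotlib 3.10.9 (Python 3.11.15).

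The text names Smarcd1 with its paralogs, the 14 calls that rose most and the 14 that fell most, the 8 rises and 8 falls with the smallest p among calls at neither temperature (predicted and immune receptor genes left out), the 6 calls with the smallest interaction p, up to 4 members with the smallest p of each list and the genes named for fat in the study text. The members and the 39 gene lists were chosen with earlier results of these data known. Of 860 listed genes 785 were measured, and the others were not analysed here. The alternatives covered centring, quantile normalisation, filtering, cluster choice, the model, the test, the threshold and the arrays used.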

Additional observations from a re-analysis of the deposited data

Results flagged for a closer look

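The interaction of genotype and temperature, tested as the difference between the cold and the room temperature effects, passed for 4 genes. It was 5.75 for Ucp1, 3.03 for Slc27a2, 2.59 for Cox7a1 and 1.99 for Acot11 on the log2 scale, the effect being larger in cold in each. The averaged differences of these genes were 2.98, 1.45, 1.67 and 1.20 in that order. They did not pass in the additive fit, with adjusted p from limma of 0.261, 0.354, 0.0939 and 0.139. That fit counts an interaction as residual spread, and each of these genes passed in 2 of 14 alternative settings other than leaving out 1 array. A dimmer cluster of Slc27a2, with a mean signal of 1.53, did not repeat its cold effect. It differed by 0.05 in cold and -0.24 at room temperature.

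After removal of the mean temperature effect, 1 array stood far from the other 5 of its genotype in 7 of 142 groups of a named gene and a genotype (4.93%, where chance gives about 5%), by a gap past Dixon's 95% critical value. These arrays were AKO Cold 1 for Pex11a (8.69 on the log2 scale), AKO Cold 2 for Plagl1 (5.21), AKO RT 1 for Chchd10 (8.45), AKO RT 2 for Kng2 (2.94), AKO RT 3 for Oxtr (8.38), flox Cold 1 for Pde4a (4.99) and flox RT 2 for Il17re (4.77). The Oxtr and Pex11a values were above those of their groups and the other 5 below. No array appeared more than once.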

How the results depend on the processing

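None of 77 named differences recomputed changed sign under any alternative, while the medians of 17 of 39 gene lists took both signs, among them the muscle markers (-0.68 without the 3 muscle-rich arrays) and the interferon list (0.11 without the 2 interferon-rich arrays). Of 71 named calls recomputed, 56 passed in all 12 fits with 1 array left out, 71 with array weights and 69 with 1 mean per group. After quantile normalisation 66 passed, after centring 63 and with the replicate block 62. Without the interferon-rich arrays 45 passed, with marker covariates 42, without the temperature term 35 and without the muscle-rich arrays 29. After Benjamini-Hochberg adjustment, 31 passed with two-way analysis of variance and 13 with the methods' t-test. All 71 passed when only genes above the overall median signal in at least 3 arrays were tested. That filter kept calls described as dim, such as Tfr2, so it cannot show whether dim signal matters. Without 1 array the averaged calls numbered 79 to 113, with 53 to 75 rises and 24 to 53 falls. The total fell by more than 1.5 times without AKO Cold 2 (82) and AKO Cold 3 (79), and the falls did without each array except flox Cold 3 (38) and flox RT 2 (53). The number of arrays limits the precision of all these values. The calls in cold then numbered 23 to 53, those at room temperature 12 to 52 and the interaction 4 to 13, the last without flox RT 3.

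Without the temperature term 55 genes were called (34 rises, 21 falls). The methods' t-test gave 20 after Benjamini-Hochberg adjustment (13 and 7) and 1308 unadjusted (628 and 680), and a two-way analysis of variance gave 50 (34 and 16) and 1571 (805 and 766). At an adjusted p below 0.1 there were 110 rises and 82 calls in cold. Over all transcript clusters the interaction had 7 calls. Of alternatives chosen after seeing the data, leaving out the 3 muscle-rich arrays gave 43 averaged calls (33 and 10), 23 in cold and 12 at room temperature, and leaving out the 2 interferon-rich arrays gave 65 (36 and 29) and 1 at room temperature. Marker means as covariates gave 64 (43 and 21), 30 in cold and 8 at room temperature. The cause of these changes was not tested, though fewer arrays or degrees of freedom entered the last 3.

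With the replicate number as a block, 97 genes were called (61 rises, 36 falls), 92 of them among the 124, with 40 in cold, 22 at room temperature and 6 for the interaction. The deviations of same-numbered arrays correlated at -0.24 to 0.28 over 18 pairs. No range is given for differently numbered arrays, so these values cannot decide whether the numbers pair the samples.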
